A study of Homo sapiens with 8 samples.

Results

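The genes described here are those of the TGF-beta, activin and BMP signalling pathway, compared between LoVo and GP5d, both established human colorectal cancer cell lines. They were chosen by name as 36 listed genes, and 35 of them had a row among the 19002 genes of the deposited table. The other listed gene, INHBA, was not analysed here. Each line was measured on 4 arrays whose labels call them biological replicates. Per the labels' protocols, LoVo and GP5d cells were both grown in DMEM with 10% FBS and antibiotics to 80% confluency on plastic, and no treatment is named. Each side of the comparison is thus 1 cell line, and a difference between them holds for these lines as cultured. Nothing says how far apart in time or culture the replicates were, so p-values measure only the spread between these samples.

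Ligands of this family are secreted dimers that bring together type II and type I receptors, which are serine/threonine kinases. TGF-betas and activins mainly act through SMAD2 and SMAD3, and BMPs through SMAD1, SMAD5 and SMAD9; both branches use SMAD4 to act on genes in the nucleus. In the intestine BMP activity is known to be high towards the differentiated end of the crypt and to be held down near the stem cells by secreted antagonists. TGF-beta restrains the growth of normal colon epithelium, and colorectal cancers with defective mismatch repair often carry frameshifts in TGFBR2. Arrays of this kind measure transcript level and do not read sequence.

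Values are on the log2 scale, and differences are LoVo minus GP5d, so a difference of 1 is 2-fold. A gene was called where limma's Benjamini-Hochberg adjusted p over all 19002 genes was under 0.05 and the lines differed by 1 or more on this scale. The table has a dense peak of low values, and values at or below 2.81, the end set for that peak, were taken to have no reliable order. Levels of different genes are not set against each other, since each has its own probes. In bulk RNA, fewer cells with a transcript and less of it per cell cannot be told apart.

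LoVo replicate 3 stood apart from its group. Across genes, its correlations with its fellow replicates were 0.989 to 0.991, whereas those 3 correlated among themselves at 0.996 to 0.997 and the GP5d arrays at 0.997 to 0.998. Among the 35 pathway genes it was the array farthest from the LoVo median at 15, lowest of the LoVo arrays at 8 and highest at 12. With 4 arrays per line, any array is lowest or highest at many genes by chance. The lowest and highest counts therefore do not by themselves set it apart. The median SD of the pathway genes was 0.216 in LoVo and 0.121 in GP5d, and 0.151 in LoVo without that array. Results that rest on it are given with and without it.

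The largest differences among the pathway genes were at the ligand genes BMP2, BMP4, BMP7 and INHBB and at ID1 and ID3, which are known BMP targets. Of the 35 genes, 10 were called, against a background of 13.3% of all genes, that is 28.6% of the pathway genes. BMP2, BMP4, BMPR1B and SMAD1 were higher in LoVo, 4 genes against a background of 6.12% in that direction. ACVR1, BMP7, INHBB, SMAD9, ID1 and ID3 were lower in LoVo, 6 genes against a background of 7.2%. The 10 called genes were also called without LoVo replicate 3. Calls were more frequent among genes above the low peak on all 8 arrays, where 19.7% of all genes were called. Of the 24 pathway genes there, 8 were called (33.3%). The list was chosen by name with earlier results of these data known, and no test was made of the list as a whole.

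Smaller differences were common in both directions. On the adjusted p alone, 24 pathway genes passed (68.6%), 10 higher in LoVo and 14 lower, against 43.3% of all genes, with 21.5% and 21.9% by direction. LoVo and GP5d values were fully apart at 24 pathway genes, against 44.1% of all genes. These are not the same genes throughout: BMPR1A and SKI separated without passing the test, and BMPR2 and SMAD4 passed it with overlapping values. The median log2 difference of the pathway genes was -0.05 and that of all genes 0.05. The median absolute difference was 0.51 for the pathway genes and 0.25 for all genes. Dim genes hold these backgrounds down: among genes above the low peak on all 8 arrays, 75% of the 24 pathway genes and 62.9% of all genes passed the adjusted p, 75% and 62.7% had values fully apart, and the median absolute difference was 0.59 and 0.46.

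**Figure D1:**
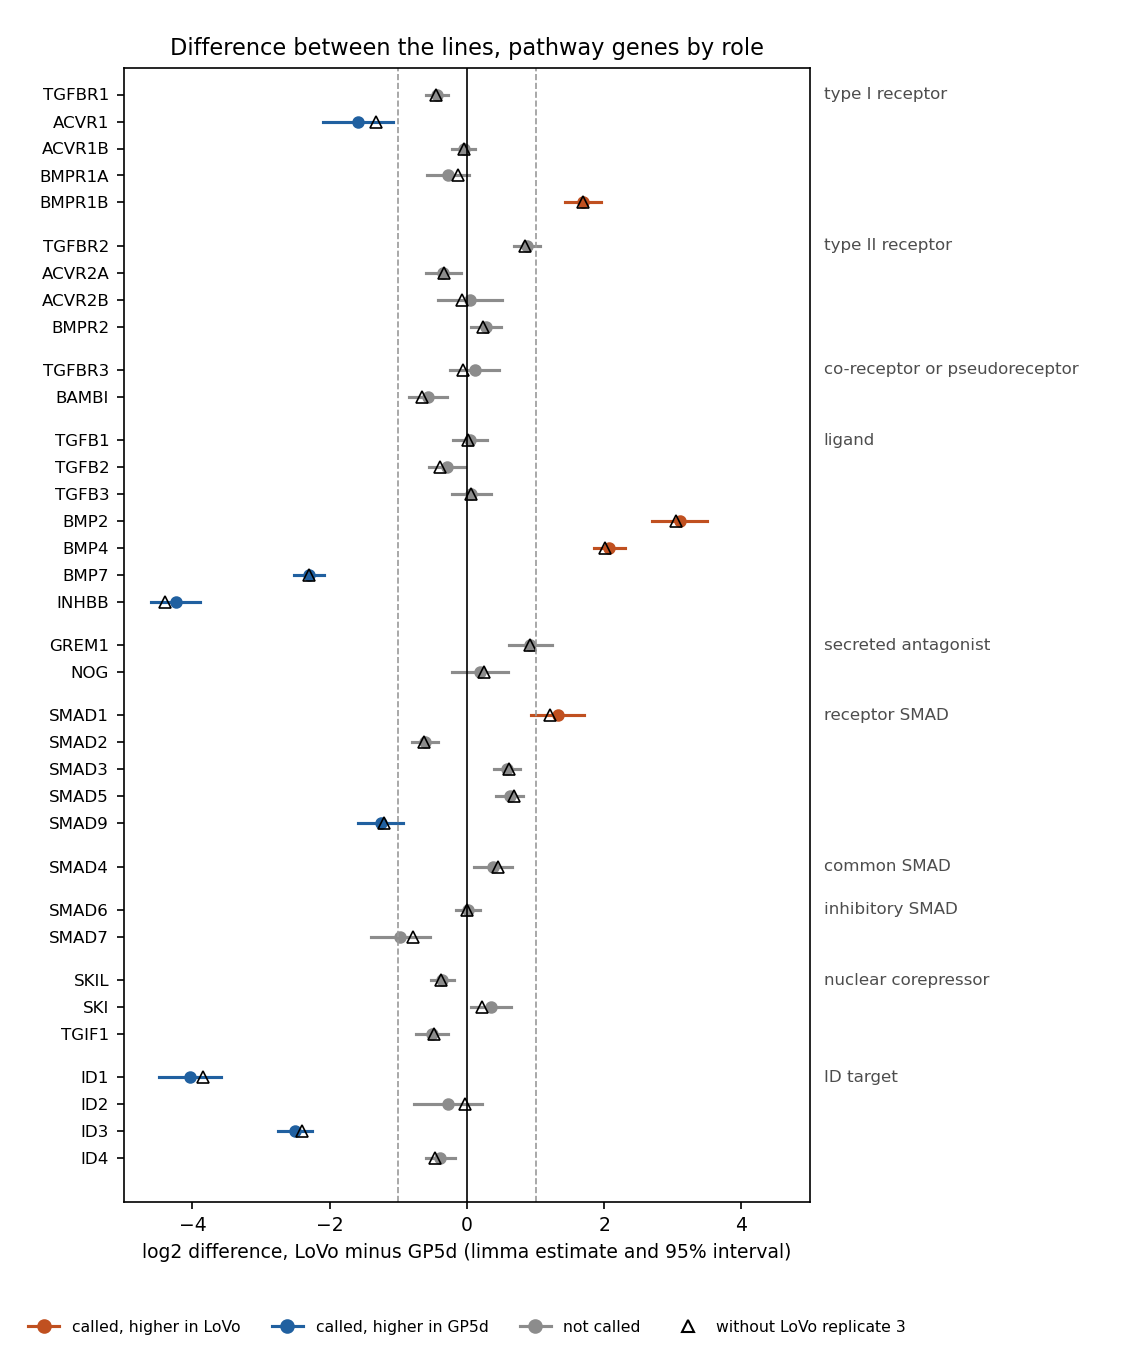
Log2 difference, LoVo minus GP5d, on the horizontal axis for each of the 35 pathway genes, grouped by role down the page. Points are limma estimates from all 8 arrays, lines their 95% intervals, open triangles the estimate without LoVo replicate 3, and dashed lines mark differences of -1 and 1; INHBB and ID1 lie farthest to the left, at -4.24 and -4.03, and BMP2 farthest to the right, at 3.10.

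Of the 7 ligands measured, 4 were called, against 13.3% of all genes, and they went both ways. All 4 were among the 5 ligands above the low peak on all 8 arrays, where 19.7% of all genes were called. INHBB (ENSG00000163083_at) encodes the beta-B chain shared by activin B and inhibin B. It read 3.55, 3.53, 4.28 and 3.94 on LoVo arrays 1 to 4, against 7.93, 8.03, 8.13 and 8.20 on the GP5d arrays. The lines were separated by a gap of 3.65, several times the widest range within a line (0.755 in LoVo). The log2 difference came to -4.24 (SE 0.161, limma adjusted p = 2.54e-08), a 19.0-fold lower value in LoVo, and it ranked 162 of 19002 genes by absolute difference. Without LoVo replicate 3, the highest of the LoVo arrays here, the difference was -4.40.

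BMP2 and BMP4 are close relatives that signal through the same BMP receptors. BMP2 (ENSG00000125845_at) read 6.38, 6.51, 6.54 and 5.97 in LoVo, against 3.38, 3.64, 3.08 and 2.88 in GP5d. All LoVo values lay well above the GP5d values, of which the lowest was near the end of the low peak. The difference was 3.10 (SE 0.179, limma adjusted p = 4.50e-07), or 8.60-fold higher in LoVo. BMP4 (ENSG00000125378_at) read 11.22, 11.26, 11.51 and 11.25 in LoVo, against 9.05, 9.23, 9.25 and 9.40 in GP5d. The groups were 1.82 apart at their nearest arrays, well over the range of either line. Its difference was 2.08 (SE 0.102, limma adjusted p = 1.42e-07), 4.22-fold higher in LoVo.

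BMP7 (ENSG00000101144_at), a BMP of another subgroup that prefers ACVR1 among type I receptors, had the opposite direction to BMP2 and BMP4. It read 3.93, 3.97, 3.88 and 3.71 in LoVo, against 6.14, 6.38, 6.11 and 6.07 in GP5d. The replicates of each line spanned 0.256 in LoVo and 0.316 in GP5d, and the gap between lines was 2.10. The difference was -2.30 (SE 0.0963, limma adjusted p = 5.08e-08), 4.93-fold lower in LoVo.

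No TGF-beta ligand passed the test. TGFB1 averaged 4.05 ± 0.202 in LoVo, against 4.01 ± 0.116 in GP5d (SD, n = 4 each), and the 95% interval of its difference ran from -0.21 to 0.30. TGFB2 and TGFB3 were within the low peak on all 8 arrays. For TGFB2 the adjusted p was 0.0700 by limma with all arrays and 0.00855 without LoVo replicate 3. Both groups lay where values were taken to have no reliable order.

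**Figure D2:**
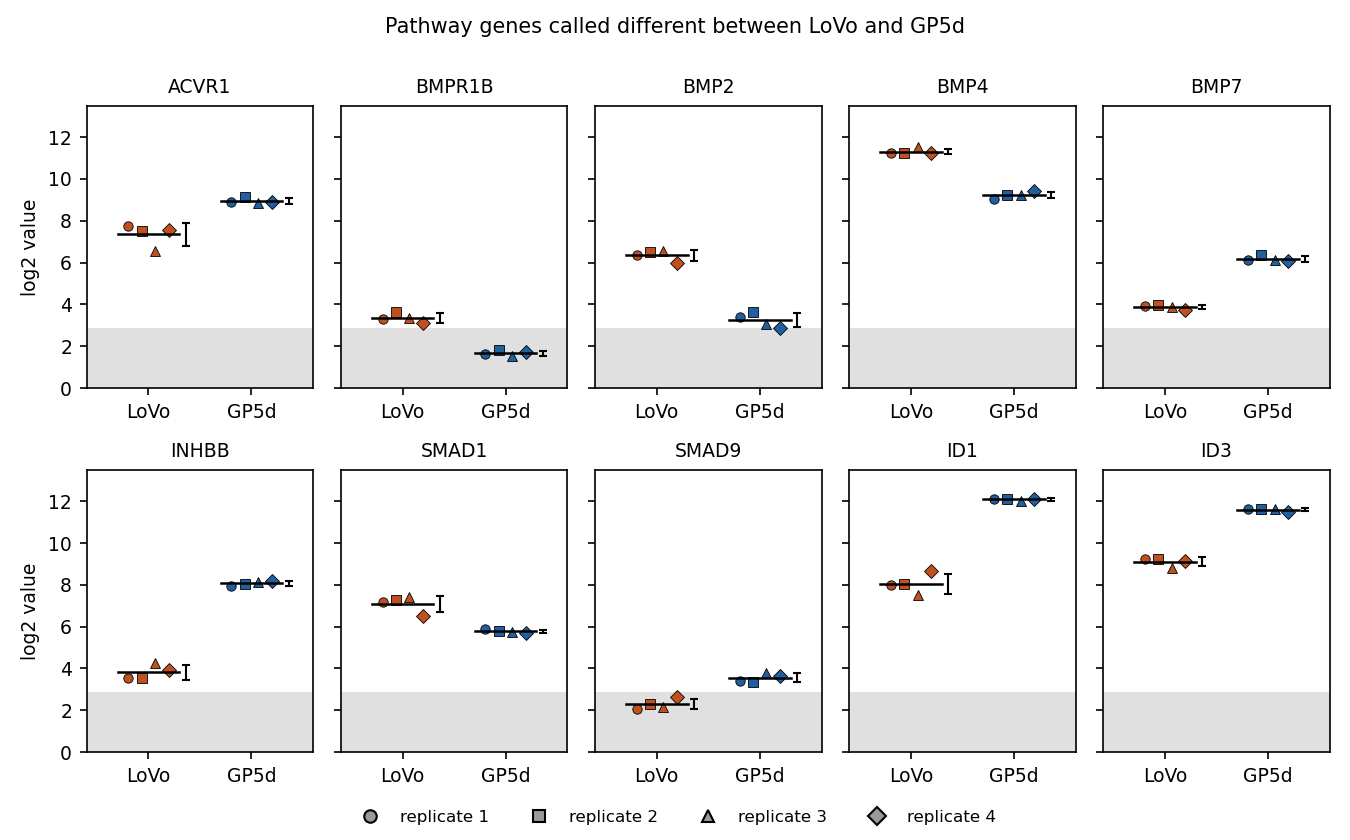
Log2 values (vertical axis) of the 10 called pathway genes on the 4 LoVo arrays (left in each panel) and the 4 GP5d arrays (right). Marker shape gives the replicate, horizontal bars the mean, error bars 1 SD, and the grey band the low peak up to 2.81; in every panel the arrays of the lines are apart, and the triangle of LoVo replicate 3 lies lowest for ACVR1 at 6.56 and for ID1 at 7.49.

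Among the 5 type I receptors, which phosphorylate the SMADs, ACVR1 and BMPR1B were called in opposite directions, against 13.3% of all genes called. Only ACVR1 of these was among the 3 above the low peak on all 8 arrays, where 19.7% of all genes were called. ACVR1 (ENSG00000115170_at), also known as ALK2, serves BMP7 and related ligands. It read 7.76, 7.53, 6.56 and 7.58 in LoVo, against 8.89, 9.15, 8.83 and 8.90 in GP5d. Every LoVo array was below every GP5d array, and replicate 3 was about 1 log2 unit below the other LoVo arrays. The difference was -1.58 (SE 0.229, limma adjusted p = 0.000272), 3.00-fold lower in LoVo, and -1.32 without replicate 3 (adjusted p = 3.94e-06 by limma).

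BMPR1B (ENSG00000138696_at), a receptor for BMPs and growth differentiation factors, read 3.31, 3.65, 3.35 and 3.11 in LoVo, against 1.63, 1.80, 1.51 and 1.71 in GP5d. LoVo was just above the low peak and GP5d within it on all 4 arrays. The deposited values differ by 1.69 (SE 0.119, limma adjusted p = 1.86e-06). With the GP5d values raised to the end of the peak, LoVo was at least 1.46-fold higher, which is under the 2-fold minimum.

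BMPR1A (ENSG00000107779_at), the main type I receptor for BMP2 and BMP4 and a gene of inherited juvenile polyposis, read 8.36, 8.41, 7.77 and 8.31 in LoVo, against 8.43, 8.41, 8.62 and 8.49 in GP5d. The highest LoVo and the lowest GP5d value were nearly equal. Its difference of -0.28 did not pass (limma adjusted p = 0.143, 95% interval -0.59 to 0.04), and it was -0.13 without LoVo replicate 3. TGFBR1 (ENSG00000106799_at), the type I receptor for TGF-beta, read 5.34, 5.30, 5.38 and 5.33 in LoVo, against 5.70, 5.74, 5.86 and 5.81 in GP5d. Its replicates lay close together and the lines were apart by a small step, -0.44 (SE 0.0721, limma adjusted p = 0.000648), 1.36-fold lower in LoVo. ACVR1B, an activin receptor, was within the low peak on all 8 arrays.

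None of the 4 type II receptors, which bind ligand and switch on the type I receptors, was called, against 13.3% of all genes. None reached a 2-fold difference. TGFBR2 (ENSG00000163513_at) came closest. It read 5.02, 4.85, 5.09 and 5.03 in LoVo (mean 4.996 ± 0.104), against 4.19, 4.09, 4.17 and 4.03 in GP5d (mean 4.12 ± 0.0745; SD, n = 4 each), above the low peak in both lines. The difference was 0.88 (SE 0.0822, limma adjusted p = 1.39e-05), 1.84-fold higher in LoVo with no overlap, so that TGFBR1 and TGFBR2 differed in opposite directions. ACVR2A, which binds activins and BMPs, and BMPR2, the main type II receptor for BMPs, passed only narrowly. ACVR2A had a difference of -0.34 (limma adjusted p = 0.0336), which no longer passed without LoVo replicate 1 or 2 or GP5d replicate 1 or 2 (adjusted p up to 0.101), with a common median (0.0519) or with a replicate block (0.0624). BMPR2 had a difference of 0.28 (limma adjusted p = 0.0422), which passed in 2 of the 8 fits with 1 array left out, those without LoVo replicate 4 or GP5d replicate 1, and reached an adjusted p of 0.120 in the others. It also missed the threshold with a replicate block (adjusted p = 0.0696), with array weights (0.0675) and with a trended and robust prior (0.0563). ACVR2B had a difference of 0.04 with a 95% interval from -0.43 to 0.51.

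BAMBI, a pseudoreceptor that resembles a type I receptor but lacks the kinase, averaged 8.45 ± 0.216 in LoVo, against 9.02 ± 0.150 in GP5d (SD, n = 4 each). It was lower in LoVo by a log2 difference of -0.57 (limma adjusted p = 0.00350). TGFBR3, the co-receptor betaglycan, averaged 8.46 ± 0.340 in LoVo, against 8.35 ± 0.161 in GP5d (SD, n = 4 each). Its difference of 0.11 did not pass and turned to -0.05 without LoVo replicate 3, which read 8.96 where the other LoVo arrays read 8.21 to 8.41.

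All 5 receptor-activated SMADs passed the adjusted p, against 43.3% of all genes. Only SMAD1, SMAD2 and SMAD5 were above the low peak on all 8 arrays, where 62.9% of all genes passed. Of the 5, 3 were higher in LoVo and 2 lower, and SMAD1 and SMAD9 were called, against 13.3% of all genes. Among genes above the low peak on all 8 arrays, 19.7% were called. The 3 that serve BMPs did not share a direction. SMAD1 (ENSG00000170365_at) read 7.19, 7.26, 7.40 and 6.52 in LoVo, against 5.86, 5.81, 5.74 and 5.68 in GP5d. LoVo replicate 4 was the lowest of its line and still above every GP5d array. The difference was 1.32 (SE 0.170, limma adjusted p = 0.000125), 2.50-fold higher in LoVo.

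SMAD5, of the same branch, averaged 7.46 ± 0.125 in LoVo, against 6.84 ± 0.0796 in GP5d (SD, n = 4 each), a difference of 0.62 (limma adjusted p = 0.000225). SMAD9 (ENSG00000120693_at), sometimes called SMAD8, read 2.08, 2.30, 2.16 and 2.65 in LoVo, against 3.42, 3.34, 3.80 and 3.66 in GP5d. Here LoVo was within the low peak on all 4 arrays and GP5d above it on all 4. The deposited values differ by -1.26 (SE 0.144, limma adjusted p = 5.44e-05), and with LoVo raised to the end of the peak the line was at least 1.67-fold lower, also under the 2-fold minimum.

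SMAD2 and SMAD3, the TGF-beta and activin SMADs, went opposite ways. SMAD2 averaged 7.97 ± 0.143 in LoVo, against 8.58 ± 0.0416 in GP5d, and SMAD3 averaged 3.45 ± 0.127 in LoVo, against 2.87 ± 0.0536 in GP5d (SD, n = 4 each). The difference was -0.61 for SMAD2 (limma adjusted p = 0.000262) and 0.58 for SMAD3 (limma adjusted p = 0.000287), with the GP5d values of SMAD3 close to the end of the low peak.

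SMAD4 (ENSG00000141646_at), the partner shared by both branches and often lost in colorectal cancer, read 5.91, 5.69, 5.54 and 5.99 in LoVo, against 5.53, 5.59, 5.21 and 5.29 in GP5d. The ranges overlapped at 1 LoVo array, replicate 3. SMAD4 was above the low peak in both lines and differed by 0.38 (SE 0.126, limma adjusted p = 0.0336). It no longer passed in 4 of the 8 fits with 1 array left out, without LoVo replicate 1 or 4 or GP5d replicate 3 or 4 (limma adjusted p of 0.0818 to 0.0987). Without LoVo replicate 3 the difference was 0.46 (limma adjusted p = 0.00900). In the RefSeq gene table SMAD2, SMAD7 and SMAD4 lie in this order on chromosome 18. Their differences were -0.61, -0.97 and 0.38, the last of them resting on that unsteady test.

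SMAD7 (ENSG00000101665_at), an inhibitory SMAD that TGF-beta and BMP signalling induce and that blocks the receptors, read 7.52, 7.57, 6.77 and 7.44 in LoVo (mean 7.32 ± 0.375), against 8.43, 8.60, 8.18 and 7.96 in GP5d (mean 8.29 ± 0.280; SD, n = 4 each). No array of one line reached the other line. The difference of -0.97 (SE 0.195, limma adjusted p = 0.00238) was just short of the minimum, was -0.78 without LoVo replicate 3, and passed the minimum in 5 of the 8 fits that leave out 1 array. SMAD6, the other inhibitory SMAD, averaged 2.82 ± 0.111 in LoVo, against 2.80 ± 0.0344 in GP5d (SD, n = 4 each), at the end of the low peak in both lines.

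None of the 3 nuclear corepressors was called, against 13.3% of all genes. TGIF1, a homeodomain protein that represses SMAD targets, averaged 9.37 ± 0.171 in LoVo, against 9.88 ± 0.120 in GP5d (SD, n = 4 each), lower in LoVo by -0.51 on the log2 scale (limma adjusted p = 0.00262). SKI averaged 6.22 ± 0.261 in LoVo, against 5.87 ± 0.126 in GP5d (SD, n = 4 each), and its difference of 0.35 missed the threshold (limma adjusted p = 0.0529). The difference passed with a common median (limma adjusted p = 0.0273), with dim genes left out (0.0398) and with low values raised (0.0482). It also passed without GP5d replicate 2 (limma adjusted p = 0.0499). LoVo replicate 3 was the highest array for SKI, at 6.61, and without it the difference was 0.22. SKIL, the relative of SKI that TGF-beta induces, was within the low peak on all 8 arrays. Its values were fully apart between the lines. Its passing difference of -0.36 (limma adjusted p = 0.00335) rests on values taken to have no reliable order.

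Both secreted BMP antagonists were low. GREM1, whose raised expression causes a hereditary polyposis, read 2.85, 2.32, 2.47 and 2.18 in LoVo (mean 2.46 ± 0.286), against 1.65, 1.38, 1.46 and 1.63 in GP5d (mean 1.53 ± 0.131; SD, n = 4 each). Only LoVo replicate 1 was above the low peak. Its deposited difference was 0.93 (SE 0.139, limma adjusted p = 0.000361), and with values raised to the end of the peak it was 0.01. NOG, or noggin, was within the low peak on all 8 arrays.

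The ID genes encode helix-loop-helix proteins that lack a DNA-binding region and block other such factors, and they are classic BMP targets. Of the 4, ID1 and ID3 were called, against 13.3% of all genes, both lower in LoVo. Both were among the 3 ID genes above the low peak on all 8 arrays, where 19.7% of all genes were called. ID1 (ENSG00000125968_at) read 8.005, 8.03, 7.49 and 8.66 in LoVo, against 12.11, 12.11, 12.01 and 12.10 in GP5d. GP5d arrays lay within 0.104 of each other, LoVo arrays spread over 1.17, and the gap between the lines was 3.35. The difference was -4.03 (SE 0.199, limma adjusted p = 1.52e-07), 16.4-fold lower in LoVo, rank 177 of 19002 genes by absolute difference.

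ID3 (ENSG00000117318_at) read 9.26, 9.22, 8.78 and 9.12 in LoVo, against 11.63, 11.64, 11.63 and 11.48 in GP5d. It showed the same order of the lines as ID1, with LoVo replicate 3 again the lowest array. The difference was -2.50 (SE 0.111, limma adjusted p = 7.61e-08), 5.67-fold lower in LoVo. Without replicate 3 the differences were -3.85 for ID1 and -2.40 for ID3.

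ID2 did not follow them. It read 11.37, 11.65, 10.53 and 11.59 in LoVo, against 11.68, 11.72, 11.50 and 11.35 in GP5d, with overlapping groups apart from the low replicate 3. Its difference was -0.28 (limma adjusted p = 0.359, 95% interval -0.77 to 0.22) and -0.03 without that array. ID4 was within the low peak on all 8 arrays, so its passing difference of -0.39 (limma adjusted p = 0.00780) rests on values taken to have no reliable order. Among the called genes of the BMP branch, BMP7, ACVR1 and SMAD9 were lower in LoVo as ID1 and ID3 were, and BMP2, BMP4, BMPR1B and SMAD1 were higher. Of these, SMAD9 and BMPR1B were under 2-fold with low values raised to the end of the low peak. Whether any of these levels bears on those of ID1 and ID3 was not tested.

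Since ID1 and ID3 were lower in LoVo together and ID2 was not called, the DNA before each start is shown for the family. The windows are the 250 bases upstream of the start in RefSeq's annotation of GRCh38.p14, read 5′ to 3′ on the strand of the gene: ID1 at chr20:31605039-31605288 on the plus strand, ID3 at chr1:23559502-23559751 on the minus strand, ID2 at chr2:8681806-8682055 on the plus strand and ID4 at chr6:19837120-19837369 on the plus strand. Capitals mark CAGAC, a core of SMAD3 and SMAD4 sites, and TATAAA, both searched on both strands; GGCGCC, a palindrome bound by SMADs in BMP target enhancers, was searched too and was in none of the 4 windows.
ID1: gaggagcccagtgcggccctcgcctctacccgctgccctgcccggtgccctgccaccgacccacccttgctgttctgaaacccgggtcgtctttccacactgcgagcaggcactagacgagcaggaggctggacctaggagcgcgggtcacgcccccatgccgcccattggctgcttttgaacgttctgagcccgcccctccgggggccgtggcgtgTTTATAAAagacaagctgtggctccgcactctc
ID3: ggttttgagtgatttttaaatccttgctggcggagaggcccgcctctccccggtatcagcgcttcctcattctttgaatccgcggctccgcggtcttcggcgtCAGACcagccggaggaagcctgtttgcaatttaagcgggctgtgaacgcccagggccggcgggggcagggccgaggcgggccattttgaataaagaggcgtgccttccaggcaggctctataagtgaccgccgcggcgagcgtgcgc
ID2: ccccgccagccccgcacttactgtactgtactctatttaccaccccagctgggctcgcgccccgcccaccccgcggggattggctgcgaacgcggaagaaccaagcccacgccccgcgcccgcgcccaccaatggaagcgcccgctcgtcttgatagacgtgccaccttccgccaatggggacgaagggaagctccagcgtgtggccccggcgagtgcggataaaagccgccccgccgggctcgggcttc
ID4: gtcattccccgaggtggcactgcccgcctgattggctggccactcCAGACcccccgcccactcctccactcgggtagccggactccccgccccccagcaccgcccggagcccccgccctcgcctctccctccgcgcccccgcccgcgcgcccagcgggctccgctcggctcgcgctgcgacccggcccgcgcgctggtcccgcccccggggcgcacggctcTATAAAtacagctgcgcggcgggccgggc

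TATAAA was in the ID1 window from 31 to 26 bases before the start, overlapping a copy on the other strand from 33 to 28, and in the ID4 window from 29 to 24. CAGAC was in the ID3 window from 147 to 143 bases before the start and in the ID4 window from 205 to 201. No CAGAC overlapped a TATAAA. Among all 35116 windows of this length in the table, 10.7% held TATAAA, 38.0% held CAGAC and 16.4% held GGCGCC. The ID1 and ID3 windows thus had none of the 3 motifs in common, and the windows of ID1, ID3, ID2 and ID4 had 66.0%, 62.0%, 69.2% and 78.8% G or C, against a median of 58.0% over all windows. These are matches of letters and no measure of binding. Only these 250 bases of each gene were searched, so a motif absent from a window may lie elsewhere near the gene.

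**Figure D3:**
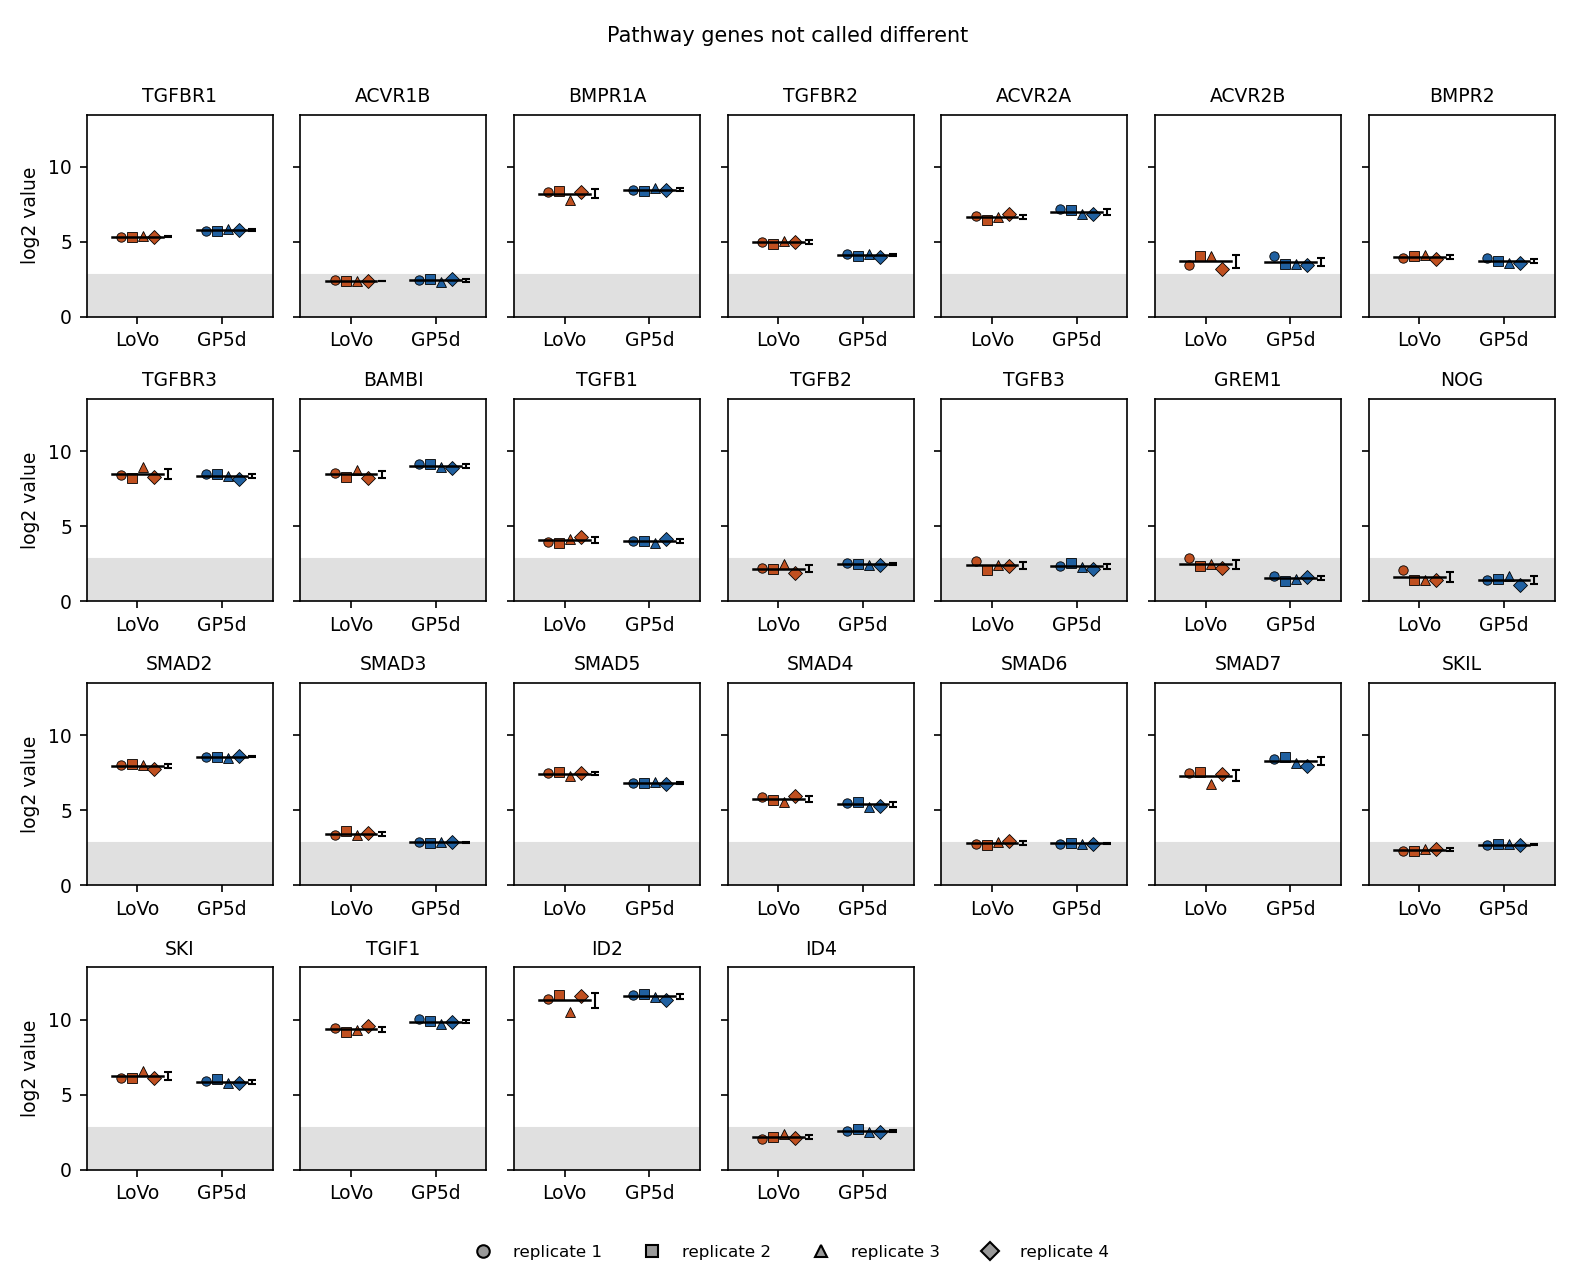
Log2 values (vertical axis) of the 25 pathway genes that were not called, on the LoVo arrays (left) and the GP5d arrays (right) of each panel, with marker shape for the replicate, bars for the mean and error bars of 1 SD. The grey band is the low peak up to 2.81, which holds all 8 values of ACVR1B, TGFB2, TGFB3, SKIL, ID4 and NOG.

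The size of the differences was compared with the rest of the table. Of the 10 called pathway genes, 6 differed by at least 2 on the log2 scale: BMP2 and BMP4 higher in LoVo, and BMP7, INHBB, ID1 and ID3 lower. These 6 also passed limma's treat, which tests against a log2 difference of 1 in place of 0. Of all 19002 genes, 721 were called with a minimum of 2 and 1250 by treat. BMPR1B passed treat too, but only on GP5d values within the low peak, and its lower bound stays at 1.46-fold. ACVR1, SMAD1 and SMAD9 did not pass treat after adjustment (adjusted p = 0.185, 0.497 and 0.570 by limma). The unadjusted 95% interval was -2.10 to -1.07 for ACVR1, 0.94 to 1.70 for SMAD1 and -1.58 to -0.94 for SMAD9, and those of SMAD1 and SMAD9 reach under 2-fold. The 25 genes that were not called had differences between -0.97 (SMAD7) and 0.93 (GREM1), 14 of them past the adjusted p and 11 not.

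**Figure D4:**
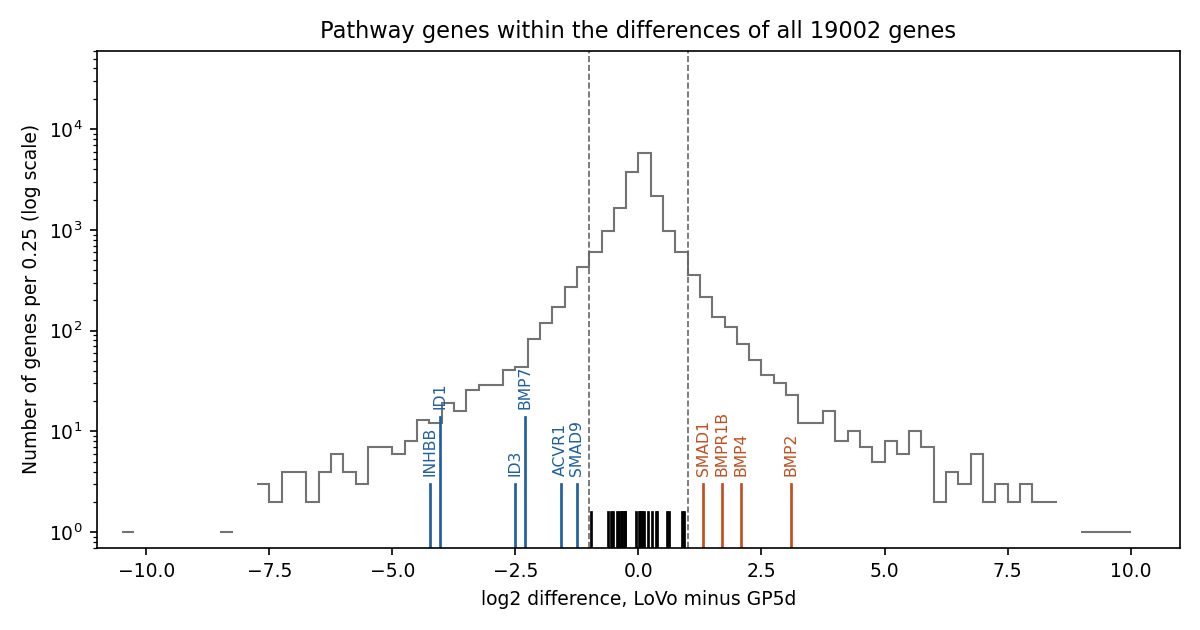
The grey outline gives the number of genes (vertical axis, log scale, per bin of 0.25) at each log2 difference, LoVo minus GP5d (horizontal axis), for all 19002 genes. Coloured ticks are the 10 called pathway genes, labelled by name at heights chosen for legibility, black ticks the other 25, and dashed lines mark -1 and 1; INHBB and ID1 lie near -4, where few genes of the table are found, and the black ticks lie between -0.97 and 0.93.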

How the data were processed

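The authors deposited 1 table of log2 values, 1 row per gene and 1 column for each of the 8 arrays, and all columns were used. RMA and GCRMA are named without a role, per the submitters' processing notes; no source used here states which of them made the table, the array type or the genome build. The values run from 0.472 to 14.7 with column medians of 3.05 to 3.11 and were compared without further scaling. Arrays give no read depth, and their number limits the precision. Row IDs are Ensembl gene IDs. The names of the 36 listed genes came with the list, and the RefSeq table at hand has 59792 genes, 0 with an Ensembl ID, so wider pathway genes and cell type markers, which would check the labelled cell type, were not analysed here.

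LoVo was compared with GP5d by limma 3.58.1 in R 4.3.3 on all 8 arrays, with line as the only factor and adjustment over 19002 genes; the code was tested on simulated data. The low peak ends at the mode of all values (1.875, histogram bins of 0.05) plus 3 times the root mean square distance of lower values from it (0.312); it holds 46.2% of all values. Every listed gene is accounted for: called genes, and TGFBR2, SMAD4, TGFBR1, BMPR1A and SMAD7, have values on each array, the 8 largest differences among all genes that were not called have means, and the rest are described more briefly, with means for TGFB1, TGFBR3, SMAD6 and SKI and array values for ID2 and GREM1 given beyond this rule. The genes and lists were chosen with earlier results of these data known. Alternatives were other normalizations, filters, floors, priors, array weights, a replicate block, omitted arrays, other minimum differences and other ends of the low peak. Plots used matplotlib 3.10.9.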

Additional observations from a re-analysis of the deposited data

Results flagged for a closer look

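Each pathway gene was checked within each line, 70 checks in all, and 8 of them had an array far from the other 3 by Dixon's test, where chance gives about 1 in 20. LoVo replicate 3 was that array for 4 of them. It read 7.77 for BMPR1A where the other LoVo arrays read 8.31 to 8.41, and 6.77 for SMAD7 where they read 7.44 to 7.57. It read 11.51 for BMP4 where they read 11.22 to 11.26, and 6.61 for SKI where they read 6.08 to 6.10. The calls of BMP4, SMAD7, BMPR1A and SKI were the same without it.

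The other 4 were spread over different arrays. LoVo replicate 1 read 2.11 for NOG where the others read 1.42 to 1.44, all within the low peak. GP5d replicate 1 read 4.06 for ACVR2B where the others read 3.49 to 3.56. GP5d replicate 3 read 12.01 for ID1 where the others read 12.10 to 12.11, and GP5d replicate 4 read 11.48 for ID3 where the others read 11.63 to 11.64. These last steps are small beside the differences between the lines of -4.03 and -2.50.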

How the results depend on the processing

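The count of 10 called pathway genes was 8 (low values raised to the end of the low peak) to 12 under alternatives that kept the minimum and tested against 0, and 10 to 12 with 1 array left out. The count over all genes moved as well, from 2530 to 2286 with low values raised and to between 2499 and 2580 with 1 array left out. The 10 called genes kept direction and call in 158 of 160 alternative values; the exceptions were BMPR1B (0.54) and SMAD9 (-0.74) with low values raised. As follows from the call rule, the count moved with the minimum: it was 24 with no minimum (8230 of all genes) and 6 with a minimum of 2 on the log2 scale (721 of all genes). Limma's treat called 7 pathway genes and 1250 of all genes, against 2530. Within the low peak on all 4 arrays were 7 genes in LoVo and 8 in GP5d; the GP5d count was 3 with an end 2 SDs above the mode. Some small differences turned sign: with array weights, TGFBR3 was -0.0301 and ACVR2B -0.0124; with 1 array left out, TGFBR3 ranged from -0.0518 to 0.196, ACVR2B from -0.0860 to 0.200, TGFB1 from -0.0365 to 0.112, TGFB3 from -0.0268 to 0.156 and SMAD6 from -0.0230 to 0.0613. None of these 5 passed the test in those fits, and the cause was not tested. SMAD7 (-1.08 to -0.78) and GREM1 (0.80 to 1.02) crossed the minimum in 5 and 1 of these fits. Arrays with the same replicate number did not deviate together from their lines (pairing correlations of -0.0257 to 0.0473). With the number as a replicate block, 10 pathway genes and 2530 of all genes were called. On the adjusted p alone, the passes of ACVR2A, BMPR2, SMAD4 and GREM1 were lost under some alternatives, as given with their values. SKI and TGFB2, which missed the threshold in the main fit, passed it under some alternatives. Genes within the low peak have no values when dim genes are left out.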
